A study of Mus musculus with 12 samples.

Results

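Branched-chain amino acid handling was followed through 8 genes of the 55536 in the deposited count table. They are Slc7a5 and Slc3a2, which form the LAT1 carrier, the transaminase genes Bcat1 and Bcat2, the dehydrogenase complex genes Bckdha, Bckdhb and Dbt, and the kinase gene Bckdk. The genes were chosen by name as parts of 1 pathway, and the set was drawn up because Bcat1 stood among the largest changes in these data. The values of Bcat1 are therefore given as a description with no test. Of the other 7 genes, 6 passed the filter on low counts and were tested.

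C2C12 is a mouse skeletal myoblast line that fuses into myotubes in low-serum medium, and the line used here carried GFP. Cells were grown on uncoated plates (Control) or on plates coated with Collagen I, with fibronectin or with Geltrex, a reduced growth factor basement membrane matrix rich in laminin, Collagen IV and entactin that was laid down as a thin gel. Each of the 4 groups held 3 RNA-seq samples of total RNA, 12 in all, and the labels name no other treatment. The day of differentiation on which RNA for sequencing was taken, and whether replicates were separate cultures, are not given in the sources used here, so p-values measure the spread between these samples, which may be technical.

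Total counts ran from 22520404 to 27351766 per sample. The 18 myotube marker genes summed to between 12242 and 13510 CPM (counts scaled to library size) in the Control samples, although Tnnc2, the fast troponin C gene, stayed between 0 and 0.22 CPM in all 12 samples. Endothelial cell markers summed to at most 0.39 CPM with Tie1 at 0, macrophage markers to at most 1.59 CPM with Adgre1 at 0, and adipocyte markers to at most 0.431 CPM. Fibroblast markers, by contrast, summed to between 1364 and 2485 CPM in the 12 samples, with Dcn at a mean of 2010 CPM in Control and Tcf21 at 0. The 3 Geltrex samples were closer to each other than the samples of any other group, with a chi-square per gene of 2.3 to 5.17 against 9.12 to 80.1 elsewhere. They still differed by more than sampling noise and were kept as 3 samples. In bulk RNA, fewer cells of a type and less RNA per cell cannot be told apart.

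Leucine, isoleucine and valine are essential amino acids that skeletal muscle oxidises more readily than most tissues. They enter the cell through LAT1, a dimer of the carrier SLC7A5 and the glycoprotein SLC3A2, and lose their amino group to 2-oxoglutarate in a reversible step run by BCAT1 in the cytosol or BCAT2 in mitochondria. The resulting keto acids are committed to breakdown by the branched-chain keto acid dehydrogenase (BCKDH), whose E1 part is built from BCKDHA and BCKDHB and whose E2 core is DBT. BCKDK phosphorylates E1 and so switches the complex off. Adult muscle is known for BCAT2, whereas BCAT1 is known from brain, embryonic tissues and many growing cells.

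The promoter windows of the transaminase genes are shown because Bcat1 and Bcat2 ran in opposite directions between Collagen I and fibronectin. Each window holds 250 bases before and 50 after a RefSeq start site on GRCm38.p6, written 5′ to 3′ on the strand of the gene. Capitals mark CANNTG, the general E-box read by basic helix-loop-helix factors, the myogenic ones among them. The Bcat1 windows are chr6:145076108-145076407 and chr6:145048763-145049062 on the minus strand, and the Bcat2 windows are chr7:45569903-45570202 and chr7:45571029-45571328 on the plus strand. All 4 start sites lie in annotated exons of their gene.
Bcat1 start 1: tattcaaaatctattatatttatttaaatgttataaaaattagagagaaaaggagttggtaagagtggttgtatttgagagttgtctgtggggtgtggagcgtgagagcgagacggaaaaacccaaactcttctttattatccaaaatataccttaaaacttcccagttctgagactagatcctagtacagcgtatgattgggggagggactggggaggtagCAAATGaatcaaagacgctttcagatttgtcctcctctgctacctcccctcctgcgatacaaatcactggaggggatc
Bcat1 start 2: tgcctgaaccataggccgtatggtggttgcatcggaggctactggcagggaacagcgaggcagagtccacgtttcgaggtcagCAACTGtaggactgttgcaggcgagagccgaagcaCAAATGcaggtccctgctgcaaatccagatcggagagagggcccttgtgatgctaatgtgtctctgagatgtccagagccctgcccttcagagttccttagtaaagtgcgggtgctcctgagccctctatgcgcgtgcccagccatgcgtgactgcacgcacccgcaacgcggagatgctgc
Bcat2 start 1: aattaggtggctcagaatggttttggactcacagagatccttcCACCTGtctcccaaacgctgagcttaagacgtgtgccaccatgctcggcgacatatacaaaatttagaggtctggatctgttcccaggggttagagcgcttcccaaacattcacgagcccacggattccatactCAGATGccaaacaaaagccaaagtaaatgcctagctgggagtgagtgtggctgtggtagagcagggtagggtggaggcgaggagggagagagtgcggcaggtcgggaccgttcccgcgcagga
Bcat2 start 2: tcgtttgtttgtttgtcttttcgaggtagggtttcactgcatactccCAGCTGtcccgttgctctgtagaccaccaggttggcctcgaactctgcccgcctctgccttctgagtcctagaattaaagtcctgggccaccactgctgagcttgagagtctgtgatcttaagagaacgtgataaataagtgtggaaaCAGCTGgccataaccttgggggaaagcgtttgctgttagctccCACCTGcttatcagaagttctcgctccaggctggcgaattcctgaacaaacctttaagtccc

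CANNTG matched once and 2 times in the Bcat1 windows, and 2 and 3 times in those of Bcat2. Of all 32851 promoter windows, 72.3% held at least 1 match and the median was 1. GC content was 41% and 58.7% in the Bcat1 windows and 54% and 50.3% in the Bcat2 windows, against a median of 52.7%. Further motifs were searched on both strands, namely CACGTG (the E-box of Myc and its relatives, itself a CANNTG, present in 7.15% of all windows), TGATGNAA (an ATF4 site, 3.97%) and AAGGTCA (a site of ERR receptors, 4.72%). These letters were found in 0 of the 9 windows that cover 6 of the 8 genes, which says nothing about the factors. Dbt and Slc7a5 had no window. Gene counts do not show which start site was used.

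Slc7a5 encodes the transport subunit of LAT1 (chr8:121881150-121907694, minus strand, GRCm38). In the Control samples it stood at 91.9, 87.8 and 76.6 CPM in replicates 1, 2 and 3, and on Collagen I at 66.4, 55.5 and 80.8 CPM. It reached 171, 170 and 164 CPM on fibronectin and 107, 116 and 115 CPM on Geltrex. All fibronectin samples lay above all Geltrex samples, which lay above all Control samples, steps that 21.5% and 25.3% of all genes also showed, whereas Collagen I replicate 3 overlapped the Control range.

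Slc7a5 rose on fibronectin by 0.98 ± 0.11 (log2, SE, n = 3 per group) over Control, with an adjusted p of 7.43e-06. Every adjusted p for a gene comes from the quasi-likelihood F test of edgeR, corrected by the Benjamini-Hochberg method across the 14499 genes that passed the low-count filter. It was the 1 gene called among the 6 tested in this comparison, in which 31.9% of all genes were called. Slc7a5 was also the 1 gene of the 6 called on Geltrex against Control, where 33% of all genes were called, with a rise of 0.40 ± 0.11 and an adjusted p of 0.0115 (edgeR). The Geltrex call was lost without Control replicate 3, at 0.32 and an adjusted p of 0.0576 in edgeR, and also with the 3 Geltrex samples summed into 1, at 0.41 and an adjusted p of 0.136. On fibronectin Slc7a5 was 0.58 ± 0.11 above Geltrex (edgeR adjusted p = 0.00137) and was again the 1 gene of 6 called, against 19.3% of all genes. With the Geltrex samples summed, that difference stayed at 0.59 with an adjusted p of 0.0797 in edgeR.

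Collagen I held the lowest Slc7a5 mean. Against Control its log2 fold change was -0.34 ± 0.11 and was not called, with an adjusted p of 0.153 in edgeR and a 95% interval from -0.58 to -0.10. Without Collagen I replicate 3 the difference was -0.50 and was called, at an adjusted p of 0.0217 in edgeR. Slc7a5 was lower on Collagen I than on fibronectin by a log2 fold change of -1.32 ± 0.11, a 2.5-fold difference (edgeR adjusted p = 2.71e-07). It was lower than on Geltrex by -0.74 ± 0.11 (edgeR adjusted p = 9.56e-05).

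Slc3a2 encodes the heavy chain that carries SLC7A5 to the cell surface and also binds integrins (chr19:8706882-8723369, minus strand). Its levels were 95.3, 79.6 and 83.9 CPM in Control, 75.4, 66 and 89.6 CPM on Collagen I, 98.7, 98.5 and 97.9 CPM on fibronectin and 101, 98.6 and 98.2 CPM on Geltrex. All samples on fibronectin and Geltrex lay above all Control samples, as did those of 21.3% and 25.3% of all genes, and the Collagen I samples overlapped Control. Neither difference from Control was called, at 0.19 ± 0.10 on fibronectin and 0.20 ± 0.10 on Geltrex, with adjusted p-values of 0.156 and 0.127 in edgeR. Slc3a2 was lower on Collagen I than on fibronectin by -0.35 ± 0.10 (edgeR adjusted p = 0.00895) and than on Geltrex by -0.37 ± 0.10 (edgeR adjusted p = 0.00852). The latter call was lost with the Geltrex samples summed, at -0.38 and an adjusted p of 0.116 in edgeR. Fibronectin and Geltrex differed in Slc3a2 by -0.01, with a 95% interval from -0.22 to 0.19.

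The 2 LAT1 subunits were thus called together in both comparisons of Collagen I with another coating. They were part of 3 called genes of 6 in each, 1 higher and 2 lower, beside 45% of all genes called for Collagen I against fibronectin and 37.1% for Collagen I against Geltrex. Per length, Slc7a5 and Slc3a2 stood at 23 ± 2.14 and 24.4 ± 2.3 CPM per kb of merged exon in Control (SD, n = 3). On fibronectin they stood at 45.4 ± 1.1 and 27.9 ± 0.12 CPM per kb, so the carrier transcript was the more abundant of the pair there. The comparisons against Control share the Control samples, and those with Collagen I share the Collagen I samples, so they are not independent of each other.

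**Figure D1:**
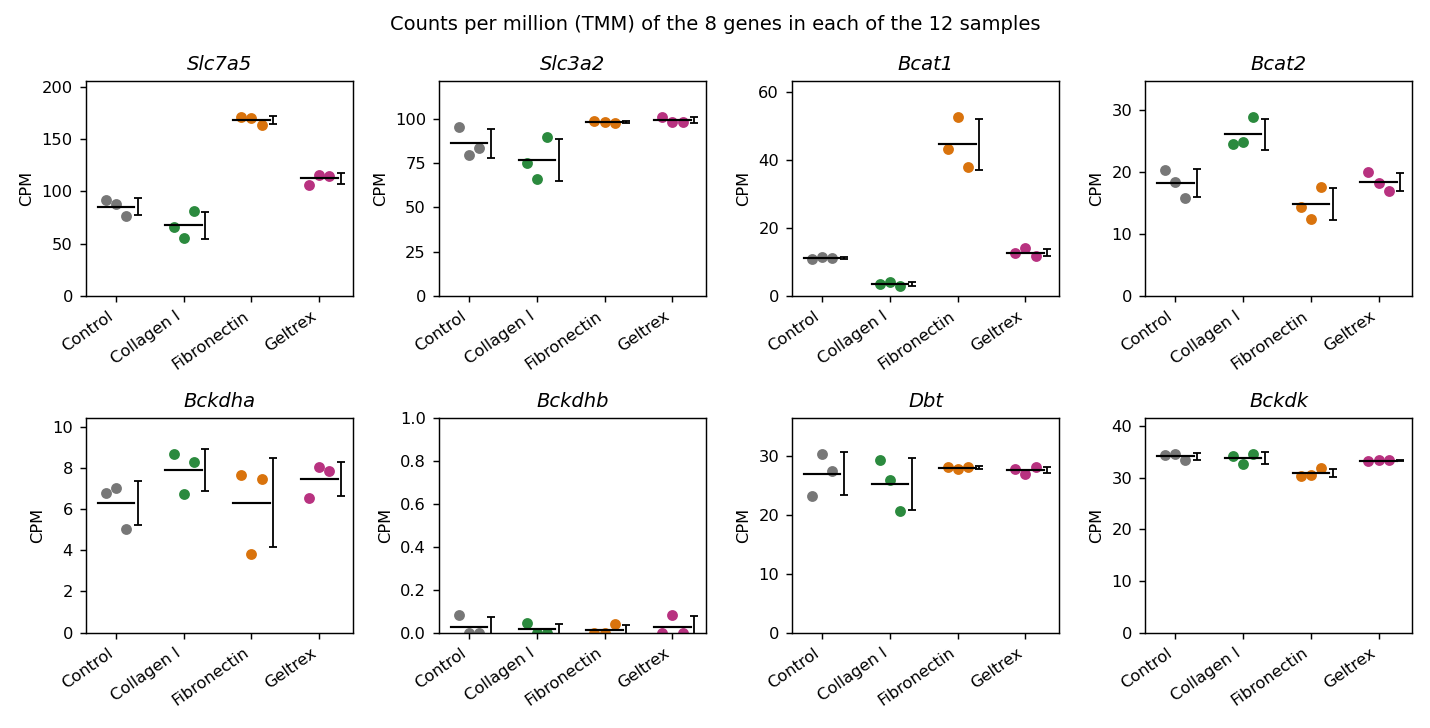
Level of each of the 8 genes in CPM (vertical axes from 0, scaled per gene) in the 12 samples, with 1 point per sample, a line at the group mean and a bar of 1 SD (n = 3) cut at 0. Bcat1 and Slc7a5 were highest on fibronectin and lowest on Collagen I, Bcat2 was highest on Collagen I, and Bckdhb held at most 2 counts in any sample.

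Bcat1 encodes the cytosolic transaminase (chr6:144993835-145076184, minus strand). The antisense gene Gm26666, which shares 337 of its 9322 exon bases, had 0 counts in all samples. Bcat1 had 276, 310 and 260 counts in the Control samples, 83, 110 and 69 on Collagen I, 1164, 1258 and 977 on fibronectin and 292, 339 and 261 on Geltrex. On the CPM scale these were 11, 11.4 and 11 in Control, 3.6, 4.09 and 2.98 on Collagen I, 43.2, 52.7 and 37.9 on fibronectin and 12.5, 14 and 11.8 on Geltrex. The order of the groups was Collagen I, Control, Geltrex and fibronectin, and no neighbouring groups overlapped, although the lowest Geltrex sample (11.8) and the highest Control sample (11.4) lay close together. Of all genes, 25.3% also had all Geltrex samples above all Control samples, and 21.5% all fibronectin samples above all Geltrex samples. Bcat1 was picked for its change, so its separation of groups is a description.

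Relative to Control, Bcat1 was 3.12-fold lower on Collagen I (log2 -1.64 ± 0.15 SE) and 4-fold higher on fibronectin (2.0 ± 0.13). On Geltrex it was 1.14-fold higher (0.19 ± 0.13). Between Collagen I and fibronectin the difference was 12.5-fold, a log2 fold change of -3.64 ± 0.14, which ranked 2 from the bottom among the 14499 genes fitted. Collagen I against Geltrex gave -1.84 ± 0.15, and fibronectin against Geltrex gave 1.81 ± 0.13. In the comparison with Control, Bcat1 ranked 21 from the bottom on Collagen I and 22 from the top on fibronectin, whereas on Geltrex it ranked 4074 from the top. These ranks are the values for which the gene was picked. No alternative setting changed the sign of a Bcat1 difference, and leaving out any 1 sample left Collagen I against fibronectin between -3.76 and -3.51. Bcat1 was picked for its change in these samples, so this steadiness is a description and not added support.

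Bcat2 encodes the mitochondrial transaminase (chr7:45570153-45589711, plus strand). It stood at 20.3, 18.4 and 15.8 CPM in Control, 24.4, 24.8 and 28.9 on Collagen I, 14.3, 12.4 and 17.6 on fibronectin and 19.9, 18.2 and 17 on Geltrex. All Collagen I samples lay above all 9 others, as did those of 3.21% of all genes, and the other 3 groups overlapped. The antisense gene 0610005C13Rik shares 622 of its 3900 exon bases and had 0 to 6 counts.

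Bcat2 on Collagen I exceeded Bcat2 on fibronectin by 0.82 ± 0.13 (1.76-fold, edgeR adjusted p = 1.48e-04) and that on Geltrex by 0.50 ± 0.13 (1.42-fold, edgeR adjusted p = 0.00632). The Geltrex difference was not called with the 3 Geltrex samples summed, at 0.49 and an adjusted p of 0.111 in edgeR. Against Control, Collagen I was 0.52 ± 0.13 higher without being called, at an adjusted p of 0.0615 in edgeR. In this comparison edgeR called 0 of the 6 genes tested, beside 1.12% of all genes, and 2 of the 6, Bcat2 and Slc7a5, had an unadjusted p under 0.05. That comparison was close to the threshold for Bcat2, since DESeq2 gave an adjusted p of 0.00977, edgeR with no filter on low counts gave 0.00194, and edgeR without fibronectin replicate 2 or 3 gave 0.0368 or 0.0293. DESeq2 called 1 of the 6 genes and edgeR without the filter called 2, the other being Slc7a5 at -0.34 and an adjusted p of 0.0379.

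Fibronectin and Control differed in Bcat2 by -0.30 ± 0.13, which was not called at an adjusted p of 0.0937 in edgeR. Without Control replicate 3 the difference was -0.39 (edgeR adjusted p = 0.0488), and without fibronectin replicate 3 it was -0.43 (edgeR adjusted p = 0.0175). Fibronectin against Geltrex behaved the same way, at -0.31 ± 0.13 and an adjusted p of 0.109 in edgeR, and at -0.46 with an adjusted p of 0.0198 without fibronectin replicate 3. Geltrex and Control differed by 0.01, with a 95% interval from -0.26 to 0.29.

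The balance of the 2 transaminase transcripts was described per length, as the share of Bcat1 in the sum of Bcat1 and Bcat2 in CPM per kb of merged exons. Bcat1 made up 18.5%, 20.5% and 22.6% in the Control samples, 5.8%, 6.45% and 4.14% on Collagen I, 55.8%, 64% and 47.4% on fibronectin and 20.7%, 24.3% and 22.5% on Geltrex. Means were 20.5% ± 2.06, 5.46% ± 1.19, 55.7% ± 8.29 and 22.5% ± 1.8 (SD, n = 3). The share was thus lowest on Collagen I and highest on fibronectin in every sample, and Control overlapped Geltrex. With the longest annotated transcript as the length, the means were 14.1%, 3.54%, 44.6% and 15.6% in the same order, so which of the transaminase transcripts was the more abundant on fibronectin depended on the length used.

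**Figure D2:**
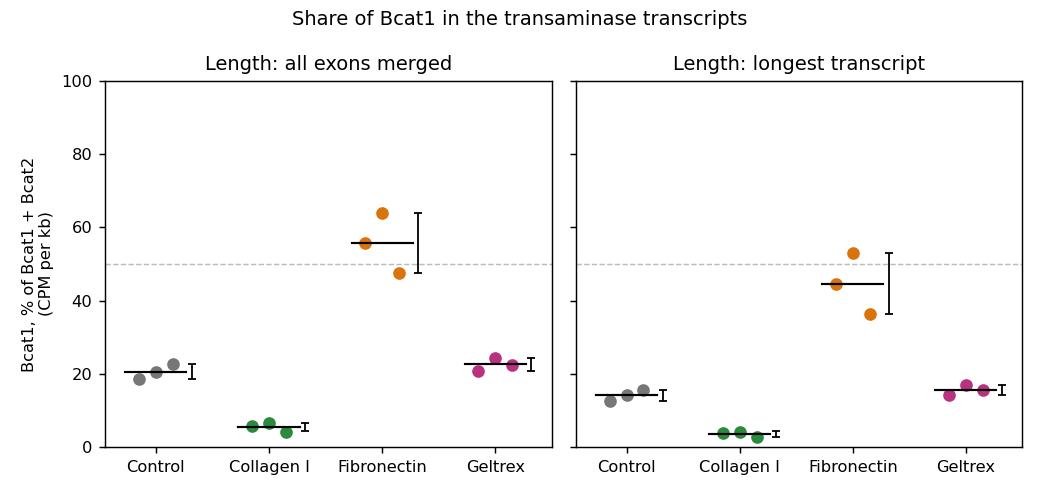
Bcat1 as a percentage of Bcat1 plus Bcat2 in CPM per kb, with length taken from all exons merged (left) or from the longest transcript (right), 1 point per sample, a line at the mean and a bar of 1 SD (n = 3). Fibronectin samples lay between 47.4% and 64% on the left, around the dashed line at equal shares, and Collagen I samples between 4.14% and 6.45%.

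In the BCKDH complex and its kinase, 0 of the 3 tested genes were called in any of the 6 comparisons by edgeR or DESeq2, and 0 had an unadjusted p under 0.05. Of all genes, edgeR called between 1.12% (Collagen I against Control) and 45% (Collagen I against fibronectin). Bckdha encodes the E1 alpha subunit (chr7:25629946-25658981, minus strand) and stood at 6.8, 7.04 and 5.05 CPM in Control, 8.71, 6.76 and 8.28 on Collagen I, 7.65, 3.81 and 7.46 on fibronectin and 6.53, 8.03 and 7.85 on Geltrex. All 4 groups overlapped, and fibronectin replicate 2 was the lowest sample. Its log2 fold changes ran from -0.24 to 0.32, and Collagen I against Control had a 95% interval from -0.13 to 0.78. Its counts can hold reads of B3gnt8 on the opposite strand, which shares 61.7% of its exon bases and itself had 4 to 20 counts, as the counting is not stated to use strand.

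Dbt encodes the E2 core subunit (chr3:116513070-116549981, plus strand). Levels were 23.1, 30.4 and 27.4 CPM in Control, 29.4, 25.9 and 20.6 on Collagen I, 28.2, 27.7 and 28.1 on fibronectin and 27.7, 27 and 28 on Geltrex. All groups overlapped, and the spread was widest in Control and on Collagen I. The log2 fold changes ran from -0.15 to 0.05. Collagen I against fibronectin had a 95% interval from -0.40 to 0.11.

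Bckdhb encodes the E1 beta subunit (chr9:83925145-84124240, plus strand), the partner of BCKDHA in E1. It had 2, 0 and 0 counts in Control, 1, 0 and 0 on Collagen I, 0, 0 and 1 on fibronectin and 0, 2 and 0 on Geltrex, 6 counts in all 12 samples. It failed the low-count filter and was not tested. A count of 0 allows up to 3 counts, which is 0.11 to 0.135 CPM in these samples, counting error only. No other annotated gene shares its exons, and how the counting treated reads with several matches is not given in the sources used here.

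Bckdk encodes the kinase that inhibits BCKDH (chr7:127904082-127910221, plus strand). It stood at 34.4, 34.7 and 33.4 CPM in Control, 34.3, 32.6 and 34.7 on Collagen I, 30.4, 30.5 and 31.9 on fibronectin and 33.2, 33.4 and 33.4 on Geltrex. The 3 fibronectin samples were below all 9 others, as were those of 6.46% of all genes, without a call. Fibronectin against Control gave -0.14 ± 0.07 with an adjusted p of 0.138 in edgeR, and Collagen I against fibronectin gave 0.13 ± 0.07 with an adjusted p of 0.15.

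Levels of the enzymes were also set on a scale per length. In Control, Bckdk stood at 9.24 ± 0.185 CPM per kb of merged exon, Dbt at 8.06 ± 1.09, Bcat2 at 4.66 ± 0.572, Bckdha at 3.32 ± 0.572, Bcat1 at 1.19 ± 0.0228 and Bckdhb at 0.0147 ± 0.0254 (SD, n = 3). On this scale Bckdk had the highest mean after the carrier subunits in all 4 groups, with 8.37 ± 0.224 CPM per kb on fibronectin against 8.36 ± 0.0726 for Dbt, a difference within the spread. Per kb of the longest transcript, Bcat2 stood above Bckdk on Collagen I, at 12.5 ± 1.18 against 9.94 ± 0.326 CPM per kb, so that order depended on the length used.

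**Figure D3:**
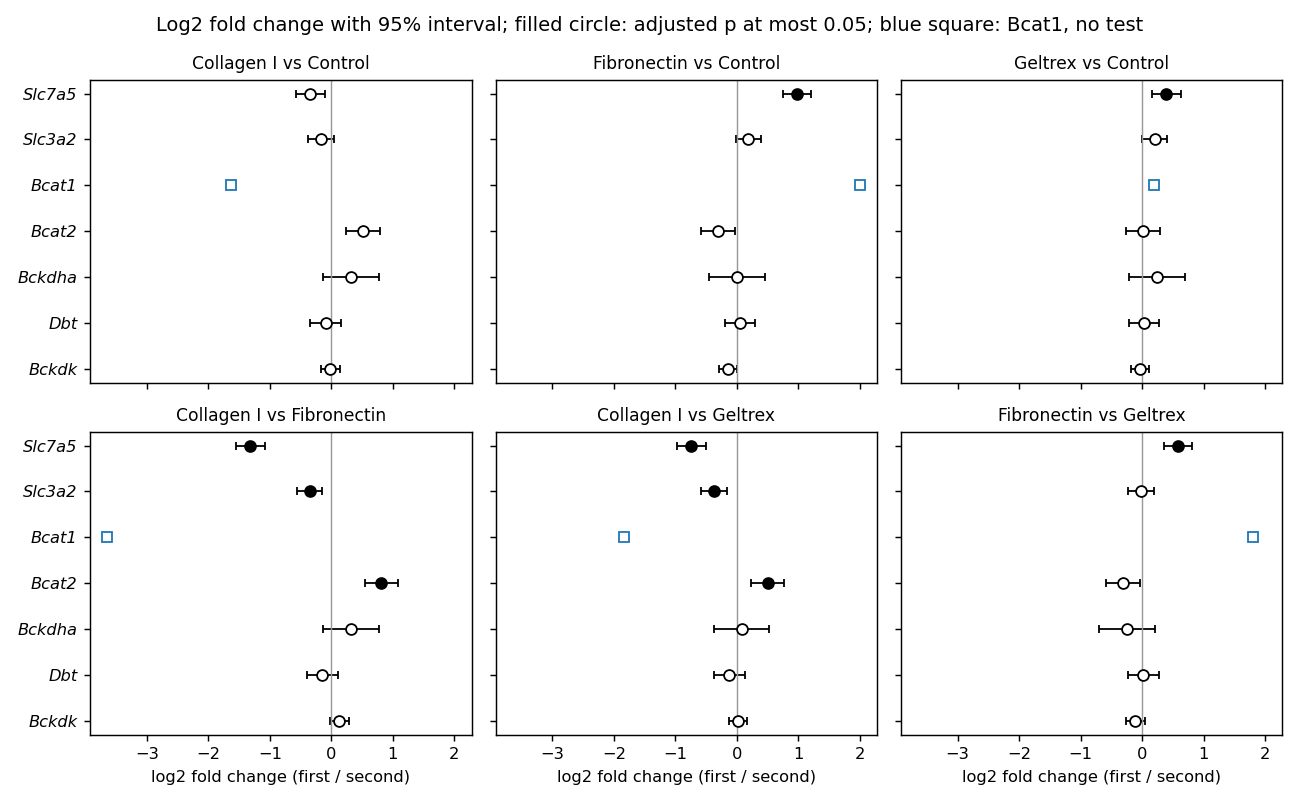
Log2 fold change (horizontal axes, first group over second) of the 7 genes with enough counts in the 6 comparisons, with 95% intervals. Filled circles mark an adjusted p of at most 0.05 in edgeR, open circles the rest, and the blue square is Bcat1, which was not tested. Slc7a5 is filled in 5 panels, Slc3a2 and Bcat2 in the panels of Collagen I against fibronectin and against Geltrex, and Bckdha, Dbt and Bckdk in none.

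A list of 70 other genes of the pathway was examined beside the members, of which 66 passed the low-count filter. Against Control, Collagen I changed 1 of them, Iars, the cytosolic isoleucine tRNA ligase, which fell by 0.62 on the log2 scale from 156 ± 11.6 to 102 ± 12.5 CPM (edgeR adjusted p = 0.0137). Without Control replicate 2 the count was 0, and without Collagen I replicate 3 it was 2. On fibronectin 10 genes rose and 16 fell relative to Control, 26 in all, and 17 were called without Control replicate 1 or without fibronectin replicate 1. On Geltrex 10 rose and 5 fell, 15 in all, and 6 were called without Control replicate 1, 8 without Geltrex replicate 1 or 2, 9 without Geltrex replicate 3 and 2 with the Geltrex samples summed. The shares of all genes called were 17.1% higher and 14.7% lower on fibronectin, and 16.4% higher and 16.6% lower on Geltrex. On Collagen I the share was 1.12% in either direction. The list medians were 0.03, -0.03 and 0.00 on Collagen I, fibronectin and Geltrex, and the medians of all genes were 0.00, -0.02 and -0.01.

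Collagen I against fibronectin called 33 of the 66, with 22 higher on Collagen I and 11 lower, beside 22.1% and 22.9% of all genes. In the lists drawn up for the steps downstream of BCKDH, 0 genes were called lower on Collagen I. The lowest log2 fold changes in the leucine, the isoleucine and valine, and the propionyl-CoA lists were -0.17, -0.19 and -0.01, none of them called. In the leucine branch 3 of 7 were higher, among them Ivd (isovaleryl-CoA dehydrogenase, 0.78) and Mccc1 (a subunit of methylcrotonyl-CoA carboxylase, 0.29). The isoleucine and valine list also holds enzymes of fatty acid oxidation, Acaa2, Hadha, Hadhb and Echs1 among them. In that list 5 of 10 genes were higher, with Acaa2 at 0.48 and Acad8 (isobutyryl-CoA dehydrogenase) at 0.39. Of the 4 genes of propionyl-CoA handling, Mcee (0.62) and Pccb (0.34) were higher. The medians of these 3 lists were 0.11, 0.25 and 0.21, against 0.02 over all genes.

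The same 3 lists showed fewer calls against Control, where 14.7% of all genes were called lower on fibronectin. On fibronectin Ivd fell (-0.46) and Oxct1, which activates ketone bodies, rose by 0.28 in the leucine branch, 4 of 10 genes fell in the isoleucine and valine branches, and Pccb fell (-0.24) among the propionyl-CoA genes. On Collagen I 0 genes of the 3 lists were called against Control by edgeR or by DESeq2, beside 1.12% of all genes in edgeR. Of the 3 lists, 2, 2 and 1 genes had an unadjusted p under 0.05 there. On Geltrex Oxct1 rose (0.30) and Pcca rose (0.28). Collagen I against Geltrex called 2, 2 and 1 genes of the 3 lists, all of them higher on Collagen I. Over the 9 lists that comparison called 11 higher and 10 lower, 21 in all, beside 18.2% and 19% of all genes, and it called 11 without Geltrex replicate 2, 13 without Geltrex replicate 3 and 6 with the Geltrex samples summed.

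Among the other cell surface carriers of amino acids, 3 of the 6 tested fell on fibronectin, namely Slc43a1 (-0.55), Slc43a2 (-0.28) and Slc7a7 (-0.62, from 1.83 to 1.19 CPM, edgeR adjusted p = 0.0426), beside 14.7% of all genes, and DESeq2 called 2 of the 6 in that comparison. Against Control, edgeR and DESeq2 called 0 of the 6 on Collagen I and 0 on Geltrex, with 2 and 0 at an unadjusted p under 0.05. Of all genes, edgeR called 1.12% and 33% in these 2 comparisons. Slc43a1 and Slc43a2 encode the uniporters LAT3 and LAT4. Slc1a5, a glutamine exchanger that works beside LAT1, stood at 10.5 ± 1.08 CPM in Control and 12.4 ± 1.94 on fibronectin and was not called. Among mitochondrial import, the shared E3 subunit and the phosphatase, Slc25a44, the mitochondrial carrier of branched-chain amino acids, fell on Geltrex by 0.27. Ppm1k, the phosphatase that opposes BCKDK, was higher on Collagen I than on Geltrex by 0.40.

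Transaminase partners also moved. Gpt, an alanine transaminase, fell on fibronectin by 0.90 from 3.31 to 1.77 CPM (edgeR adjusted p = 0.00259) and stood 1.14 higher on Collagen I than on fibronectin (edgeR adjusted p = 2.66e-04). Gpt2, the mitochondrial alanine transaminase, rose on fibronectin by 0.42. Against Control, edgeR called 0 of the 7 partners on Collagen I and 0 on Geltrex, beside 1.12% and 33% of all genes. In the same order, 0 and 1 had an unadjusted p under 0.05, and DESeq2 called 0 and 1.

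In the leucine sensing and mTORC1 list, 16 of 17 genes were tested, with Rragb at 0 counts in all samples. Sesn2 and Sesn3 encode Sestrins, of which Sestrin2 is a leucine sensor. On fibronectin 4 genes rose and 4 fell, beside 17.1% and 14.7% of all genes. Sesn3 was higher there by 0.48 (edgeR adjusted p = 8.29e-04), and Sesn2 was lower on Collagen I than on fibronectin by -0.65 (edgeR adjusted p = 4.26e-04). On Geltrex 3 rose and 3 fell, beside 16.4% and 16.6% of all genes. Sesn1 fell by 0.52 (edgeR adjusted p = 6.46e-04), and Nprl2, a GATOR1 subunit that restrains mTORC1, fell by 0.38 (edgeR adjusted p = 0.0344). Collagen I lay above Geltrex in Sesn1 by 0.73 (edgeR adjusted p = 3.40e-05) and in Nprl2 by 0.55 (edgeR adjusted p = 0.00363).

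Of the 6 tRNA ligases for leucine, isoleucine and valine, 2 rose on fibronectin and 2 on Geltrex, beside 17.1% and 16.4% of all genes. Iars rose on fibronectin by 0.54 to 226 ± 35.2 CPM (edgeR adjusted p = 0.00192), and it was lower on Collagen I than on fibronectin by -1.15 (edgeR adjusted p = 1.33e-06). On Geltrex it stood at 136 ± 6.94 CPM and was not called against Control. Lars2, the mitochondrial leucine ligase, was higher on Geltrex than in Control by 1.30 (edgeR adjusted p = 0.0113). Its levels were widely spread within groups, from 283 to 684 CPM in Control, 464 to 1001 on Collagen I and 423.5 to 1168 on fibronectin. On Geltrex they ran from 1285 to 1412 CPM.

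Of the 7 tested transcription factors of the pathway, edgeR called 0 on Collagen I against Control (2 at an unadjusted p under 0.05, 1 called by DESeq2), 1 higher and 1 lower on fibronectin, and 3 higher on Geltrex, beside the shares of all genes given above for the pathway lists. Myc, a growth-promoting factor, stood at 14.7 ± 2.15 CPM in Control, 14 ± 1.2 on Collagen I, 14.1 ± 5.51 on fibronectin and 99.7 ± 5.22 on Geltrex, where it rose by 2.77 (edgeR adjusted p = 3.32e-08). Atf4, the factor of the amino acid response, rose on Geltrex by 0.85 from 238 ± 24.8 to 429 ± 10 CPM (edgeR adjusted p = 1.00e-05) and stood at 245 ± 14.8 CPM on fibronectin. Neither transcript was called on fibronectin, and the part of these factors in the levels of the members was not tested. Hif1a, the oxygen-regulated subunit of HIF1, rose on fibronectin by 0.59 from 242 ± 35.8 to 365 ± 56.2 CPM (edgeR adjusted p = 0.00323) and was lower on Collagen I than on fibronectin by -0.91 (edgeR adjusted p = 6.82e-05) and than on Geltrex by -0.69 (edgeR adjusted p = 8.75e-04). Esrra, which encodes the receptor ERR alpha, fell on fibronectin by 0.64 from 13 to 8.37 CPM (edgeR adjusted p = 0.0268). Esrra and Ppargc1a, both regulators of mitochondrial genes, were higher on Collagen I than on fibronectin by 0.80 and 1.06 (edgeR adjusted p = 0.00495 and 0.00247), and Ppargc1a also exceeded Geltrex by 1.38 (edgeR adjusted p = 5.09e-04).

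**Figure D4:**
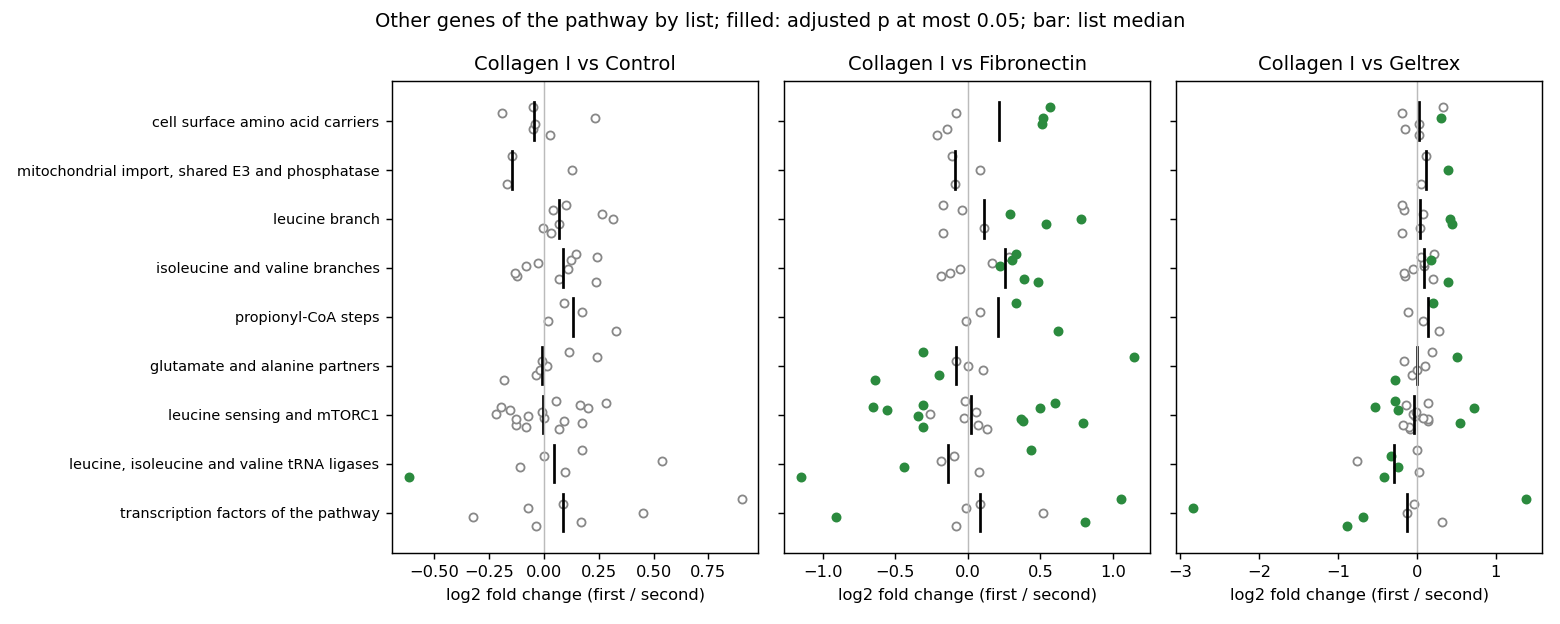
Log2 fold change (horizontal axes, own scale per panel) of the 66 tested genes of 9 pathway lists for Collagen I against Control, fibronectin and Geltrex, with filled points for an adjusted p of at most 0.05 in edgeR and a bar at each list median. Iars is the 1 filled point against Control. In the panel against fibronectin, every filled point of the leucine, the isoleucine and valine, and the propionyl-CoA lists lies to the right of 0.

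Markers of cell state moved with the coatings too. Against Control, 17.1% of all genes were called higher and 14.7% lower on fibronectin, and 16.4% and 16.6% on Geltrex. On Collagen I 1.12% were called in either direction, and between fibronectin and Geltrex 19.3%. The 16 dividing-cell genes summed to 552 to 636 CPM in Control, 444 to 465 on Collagen I, 1127 to 1409 on fibronectin and 1194 to 1271 on Geltrex. Of them 15 rose on fibronectin and 15 on Geltrex against Control, 2 fell on Collagen I, and 0 of 16 were called between fibronectin and Geltrex, where Bcat1 differed by 1.81 and Slc7a5 by 0.58. In that last comparison 0 of the 16 had an unadjusted p under 0.05 in edgeR and 0 were called by DESeq2. Myotube markers summed to 12859 to 13794 CPM on Collagen I, 3907 to 4445 on fibronectin and 5662 to 6112 on Geltrex. All 17 tested fell on fibronectin and on Geltrex against Control, 0 were called on Collagen I against Control by edgeR (2 at an unadjusted p under 0.05, 1 called by DESeq2), and 9 were lower on fibronectin than on Geltrex. The 10 interferon response genes summed to 86.4 to 136 CPM on Geltrex and 13.4 to 20.2 CPM elsewhere, and 8 of 8 tested rose on Geltrex. Fibroblast markers fell for 2 of 4 on fibronectin and 2 of 4 on Geltrex, and of 6 undifferentiated myoblast markers 1 fell on fibronectin and 1 rose on Geltrex. The part of these markers in the values of the pathway genes was not tested.

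**Figure D5:**
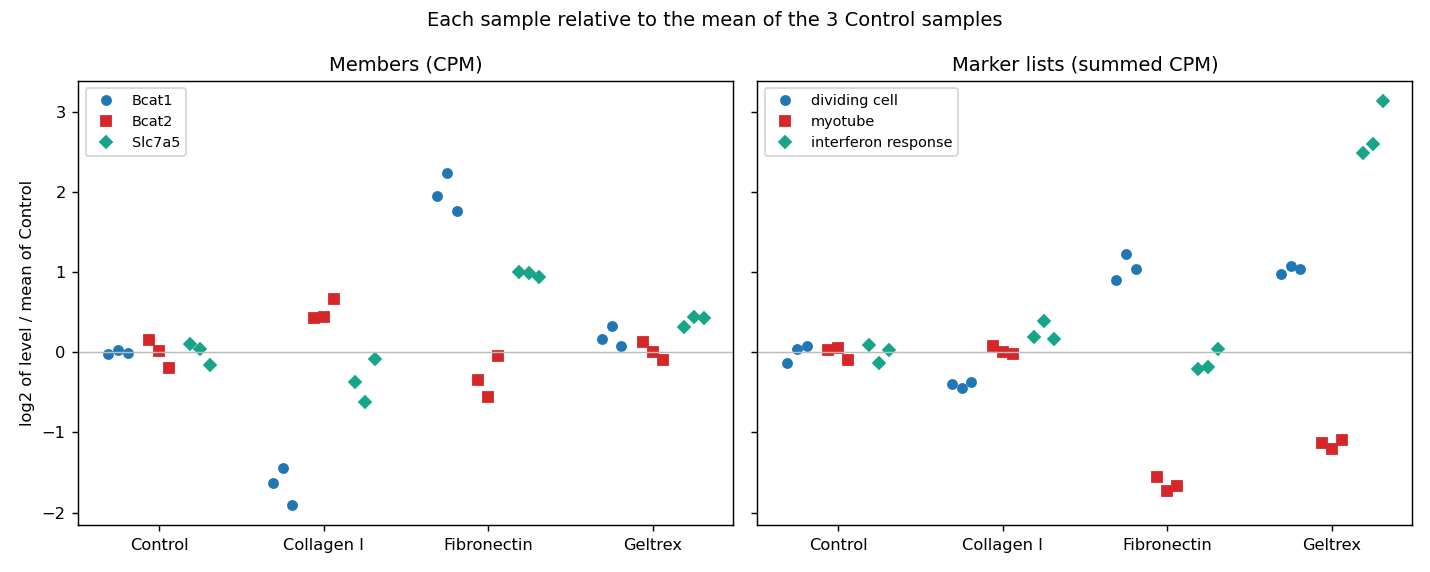
Each sample as log2 of its level over the mean of the 3 Control samples (vertical axis), for Bcat1, Bcat2 and Slc7a5 in CPM (left) and for the summed CPM of 3 marker lists (right). Dividing-cell markers lay at similar heights on fibronectin and Geltrex, while Bcat1 and Slc7a5 were higher on fibronectin.

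Genes with the most similar pattern were sought for Bcat1 and Slc7a5, the members whose group means of log2 CPM spanned at least 1, by the root mean square difference of centred log2 CPM over the 12 samples among 12320 genes. For Bcat1 these were Aldh1l2, a mitochondrial folate enzyme (0.52), Pappa, a secreted protease of insulin-like growth factor binding proteins (0.58), Knl1, a kinetochore scaffold (0.62), Havcr2, an immune receptor (0.62), and Lrp8, a lipoprotein receptor (0.65). Aldh1l2 stood at 14.6 ± 1.15 CPM in Control, 9.71 ± 1.77 on Collagen I, 49.7 ± 14.2 on fibronectin and 26 ± 0.538 on Geltrex. Lrp8 stood at 12.8 ± 0.525 CPM on Geltrex and 13.1 ± 0.307 in Control. Knl1 differed from Bcat1 there, at 25.7 ± 1.53 CPM on Geltrex and 8.6 ± 0.96 in Control, against means of 12.7 and 11.1 for Bcat1.

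For Slc7a5 the differences were smaller in size. The measure is not scaled to the span of the group means, 3.62 for Bcat1 and 1.33 for Slc7a5, so closeness cannot be compared between them. The 5 genes were Mthfd1l, a mitochondrial one-carbon enzyme (0.11), Aldh18a1, which starts proline synthesis (0.15), Gm2115, a predicted gene (0.15), Pck2, the mitochondrial PEP carboxykinase (0.15), and Tubb3, a beta-tubulin (0.15). Mthfd1l stood at 32.1 ± 0.734 CPM in Control, 26.5 ± 3.69 on Collagen I, 66.4 ± 4.92 on fibronectin and 47.4 ± 1.49 on Geltrex. These likenesses are descriptions over 12 samples in 4 groups.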

How the data were processed

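RNA-seq libraries were sequenced by the study on an Illumina NovaSeq, and reads were passed through FastQC, Trimmomatic, HISAT2 and featureCounts. The deposited table holds whole-number counts per gene from the authors, not normalized, in 12 sample columns, all mapped to samples by name. The genome build, annotation and strand setting of the counting are not given in the sources used here. All 55536 gene IDs matched GENCODE M21 (GRCm38), from which names, positions and lengths were taken, and promoter sequences came from RefSeq (GRCm38.p6).

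The count table was then fitted here in R 4.3.3 with the package edgeR, version 4.0.16 (filterByExpr with a minimum count of 10, TMM, glmQLFit and glmQLFTest, 1 fit over all 12 samples with group as the only term). Benjamini-Hochberg adjustment ran over the 14499 genes tested, and a call is an adjusted p of at most 0.05. CPM values use TMM library sizes. Alternatives were DESeq2 1.42.0, RLE factors, no or a stricter filter, the compared groups only, a replicate block, leaving out each sample and a minimum fold of 2. Summing the Geltrex samples was added after seeing the data.

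The members and lists were chosen with earlier results of these data known. Named pathway genes are up to 3 called genes with the highest and 3 with the lowest fold change in each comparison with Control and of Collagen I with another coating, and others were chosen after their values were seen. Some genes of the lists are counted but not reported here by name. For Collagen I against fibronectin, counts were simulated with 200 genes changed, and 14227 genes were tested. The test recovered 87 of 100 genes changed 2-fold and 94 of 100 changed 4-fold, with 15 false among 196 calls. In the data 45% of all genes were called, and changes under 2-fold were not simulated, so these rates need not hold for the calls above. Figures were drawn with matplotlib 3.10.9.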

Additional observations from a re-analysis of the deposited data

How the results depend on the processing

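Bcat1 differences kept their direction under every alternative run, which is a description only, as Bcat1 was chosen for its change. Leaving out 1 sample at a time, calls among the 6 tested members ranged from 0 to 1 for Collagen I against Control, 1 to 2 for fibronectin against Control, 0 to 1 for Geltrex against Control and 1 to 2 for fibronectin against Geltrex, and stayed at 3 in the other comparisons. Calls among the 66 other pathway genes ranged from 0 to 2, 17 to 27, 6 to 17, 11 to 23 (Collagen I against Geltrex) and 5 to 17 (fibronectin against Geltrex, 11 in all, 17 without Collagen I replicate 3). For Collagen I against Control, no filter on low counts gave 2 members and 4 pathway genes, and DESeq2 gave 1 and 2. A minimum fold of 2 left 0 pathway genes in that comparison, 0 and 0 for fibronectin against Control, 0 and 2 for Geltrex against Control, 1 and 3 for Collagen I against fibronectin, 0 and 2 for Collagen I against Geltrex, and 0 and 1 for fibronectin against Geltrex. With Geltrex reduced to 1 summed sample, the counts were 0 and 2 against Control, 1 and 6 for Collagen I and 0 and 4 for fibronectin, in a fit with fewer samples. Otherwise the cause was not tested.

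Signs turned only for differences that were not called, of at most 0.24 in size. Bckdha on fibronectin against Control was -0.023 under a filter of 10 counts in every sample, -0.020 with the replicate block and -0.015 with only the compared groups, and -0.153 to 0.261 leaving out 1 sample. Bcat2 on Geltrex against Control was -0.0056 under that filter and -0.074 to 0.099 leaving out 1 sample. Leaving out 1 sample also turned Dbt (-0.21 to 0.025 on Collagen I, -0.046 to 0.157 on fibronectin, -0.068 to 0.138 on Geltrex, each against Control, and -0.249 to 0.0026 for Collagen I against Geltrex), Bckdk on Collagen I against Control (-0.039 to 0.016) and Bckdha for Collagen I (-0.014 to 0.179) and fibronectin (-0.405 to 0.016) against Geltrex. The Bcat1 share with the longest transcript was 14.1%, 3.54%, 44.6% and 15.6% for Control, Collagen I, fibronectin and Geltrex.

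Replicate numbers did not pair the samples: correlations of same-numbered deviations ran from -0.154 to 0.225, and not every pair of any comparison exceeded 0.1. The fit with a replicate block called 0, 1, 1, 3, 3 and 1 members and 1, 25, 14, 32, 18 and 11 pathway genes, in the order of the 3 comparisons with Control, Collagen I against fibronectin and Geltrex, and fibronectin against Geltrex. Bckdhb held at most 2 counts in a sample, and the cause of this low level was not tested.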
